A study of Mus musculus with 7 samples.

Results

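The genes described here encode the nuclear subunits of the mitochondrial respiratory chain and of ATP synthase, measured as mRNA in islets of pregnant mice. A gene was included if its name began with NDUFA, NDUFB, NDUFC, NDUFS or NDUFV, with UQCR, with COX4 to COX8 or with ATP5, or was SDHA, SDHB, SDHC or SDHD, and if its mean level over the 7 mice was at least 0.5 TPM, a length-corrected share of all transcripts. Of 34082 gene names, 97 matched and 92 passed the level. The 5 names under it were Atp5c1-ps, Cox7b2, Cox8b, Cox8c and UQCRH. By function the 92 fell into 37 subunits of complex I, 9 complex I assembly factors, 4 subunits of complex II, 8 of complex III, 15 of complex IV and 15 of complex V, and 4 further genes. These were NDUFA4L2, a paralogue of the complex IV subunit NDUFA4, COX7A2L, known as an assembly factor of supercomplexes, the ATP synthase-associated factor ATP5S, and the row ATP5J2-PTCD1. The last of these held transcripts of Ptcd1, a mitochondrial RNA-binding protein that is not a subunit. The row UQCRHL held the mouse Uqcrh transcript and is treated as that hinge subunit, the row NDUFB4 merged Ndufb4 and Ndufb4b, and ATP5SL is the complex I assembly factor also called Dmac2.

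All mice were C57BL/6 females on day 15 of pregnancy with a reduced prolactin receptor gene (Prlr), and no group is described as having an intact receptor. In the 4 βPrlR+/− mice, whose sample titles read CkoWt, exon 5 of a floxed Prlr allele was deleted by Pdx1CreER, a Cre driven by the promoter of the pancreatic transcription factor Pdx1 and switched on by tamoxifen. In the 3 Prlr+/− mice 1 allele was missing from every tissue, with no Cre and no tamoxifen, so that genotype, Cre and tamoxifen cannot be told apart. The design text calls the β-cell deletion homozygous, whereas the methods call it heterozygous, and the age on record is 3 to 4 months, where the methods give a higher one. Each mouse gave 1 library from hand-picked islets, and the mice are numbered here in the order of their records. The methods describe an overnight culture of the islets after isolation, so the values need not be those of fresh islets. PRLR itself ranged from 38.4 to 55.7 scaled TPM in βPrlR+/− mice and from 35.1 to 51.1 in Prlr+/− mice, so that its levels overlapped. The insulin genes took 46.1% to 53.2% of the TPM in βPrlR+/− mice and 54.0% to 58.9% in Prlr+/− mice, and the summed acinar markers ranged from 2331 to 20637 and from 6359 to 16999 scaled TPM, respectively. Scaled TPM means TPM divided by a size factor for each mouse, the median ratio of its genes to their geometric means. TPM are corrected for transcript length, so levels can be compared between genes. They do not keep the sequencing depth, and no counting error can be attached to them.

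The respiratory chain passes electrons from nutrients to oxygen along the inner mitochondrial membrane. Complex I takes them from NADH and complex II, which is succinate dehydrogenase of the citric acid cycle, from succinate. Both hand them through coenzyme Q to complex III, which passes them through cytochrome c to complex IV, where oxygen is reduced. Complexes I, III and IV pump protons, and complex V, the ATP synthase, uses their return to make ATP. In β-cells the rise of ATP over ADP that follows glucose oxidation closes potassium channels and starts insulin secretion, so oxidative phosphorylation is part of glucose sensing. Complexes I, III, IV and V also contain proteins made from the mitochondrial genome, and none of the 26 names searched for these was among the rows, so those transcripts were not analysed here.

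Many genes of the chain share promoter motifs for nuclear respiratory factor 1 (NRF1), a transcription factor known for activating them. Its motif in the form GCGCA followed directly by TGCGC, which reads alike on both strands, was searched in RefSeq promoter windows of GRCm38.p6 that span 250 bases before to 50 after the gene start. A window was present for 75 of the 92 members, with 82 windows in all. It occurred in 7 of these windows (8.54%) and in 319 of all 32851 windows (0.971%). The motif CCGGAAG of the ETS family, to which the respiratory regulator GABPA belongs, occurred on either strand in 18 member windows (22%) and in 8.86% of all windows. TCAAGGTCA, bound by the estrogen-related receptor ESRRA, occurred in 2 member windows (2.44%) and in 0.423% of all windows. None of these motifs contains another, and a match describes letters, not a bound site. The 5 stretches below are the members whose NRF1 letters lie fully before the gene start, and they show where those letters stand, in capitals, within the 250 bases before it, read 5′ to 3′ on the strand of the gene. NDUFA11, a membrane-arm subunit of complex I, is at chr17:56717512-56717761 (plus strand), NDUFAF4, a complex I assembly factor, at chr4:24897833-24898082 (plus strand), COX6A1, a complex IV subunit, at chr5:115348959-115349208 (minus strand), ATP5G2, a source of the c ring of ATP synthase, at chr15:102671048-102671297 (minus strand), and Atp5k, the e subunit of ATP synthase, at chr5:108434400-108434649 (minus strand).
NDUFA11: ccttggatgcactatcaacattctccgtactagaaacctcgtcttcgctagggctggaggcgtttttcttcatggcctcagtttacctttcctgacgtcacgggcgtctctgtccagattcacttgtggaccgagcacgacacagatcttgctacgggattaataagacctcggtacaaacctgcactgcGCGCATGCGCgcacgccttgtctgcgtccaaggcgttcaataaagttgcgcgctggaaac
NDUFAF4: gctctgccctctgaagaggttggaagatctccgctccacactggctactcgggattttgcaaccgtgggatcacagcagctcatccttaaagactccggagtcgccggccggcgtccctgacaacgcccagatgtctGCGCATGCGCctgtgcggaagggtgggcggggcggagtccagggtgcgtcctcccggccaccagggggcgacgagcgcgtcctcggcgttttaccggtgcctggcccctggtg
COX6A1: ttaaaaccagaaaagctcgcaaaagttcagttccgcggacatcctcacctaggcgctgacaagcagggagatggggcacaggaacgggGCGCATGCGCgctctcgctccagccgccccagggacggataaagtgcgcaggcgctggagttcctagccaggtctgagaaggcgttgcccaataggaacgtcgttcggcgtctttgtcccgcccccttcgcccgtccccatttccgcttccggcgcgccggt
ATP5G2: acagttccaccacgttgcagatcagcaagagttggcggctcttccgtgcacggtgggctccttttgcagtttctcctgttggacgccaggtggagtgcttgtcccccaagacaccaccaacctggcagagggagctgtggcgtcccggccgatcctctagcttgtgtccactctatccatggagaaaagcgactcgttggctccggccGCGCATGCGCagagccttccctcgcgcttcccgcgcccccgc
Atp5k: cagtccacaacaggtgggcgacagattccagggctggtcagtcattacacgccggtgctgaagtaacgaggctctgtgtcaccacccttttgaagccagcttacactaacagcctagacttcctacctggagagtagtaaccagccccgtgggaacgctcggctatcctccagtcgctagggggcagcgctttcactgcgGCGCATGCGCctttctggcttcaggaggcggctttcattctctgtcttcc
The first letter of the motif stood 60 bases before the start in NDUFA11, 113 in NDUFAF4, 162 in COX6A1, 42 in ATP5G2 and 50 in Atp5k. The other matches, in NDUFAF5 and UQCRC1, stood after the start, and those stretches are not shown.

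To learn whether the genes of oxidative phosphorylation differed between islets with a β-cell-directed and islets with a whole-body Prlr deletion, each gene was compared between the 4 and the 3 mice with limma. None of the 92 members passed an adjusted p of 0.05, and the lowest adjusted p among them was 0.9999. At the same threshold 10 of the 14840 genes tested were called (0.0674%). At an unadjusted p under 0.05, 1 member stood against 671 of all genes (4.52%), and the levels of the groups did not overlap in 1 member against 735 of all genes (4.95%). Both counts refer to NDUFA4L2. The median log2 fold change, Prlr+/− minus βPrlR+/−, was 0.02 over the members and 0.00 over all genes tested, with 62 members higher and 30 lower. The sign of the small median over the members was not stable, since it ran from −0.01 without Prlr+/− mouse 3 to 0.09 without Prlr+/− mouse 2 and was −0.01 with upper-quartile scaling. The count of members at an unadjusted p under 0.05 also moved, to 8 with TPM as deposited, where 1177 of all genes (7.93%) had such a p and the median of all genes was −0.12. With 1 mouse left out it was 0 to 2 of the 92 members, where 3.35% to 7.25% of all genes had such a p.

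The limits that the data set on any difference were narrow for most members. A 95% interval within 0.5 log2 units of 0, a change of 1.41-fold either way, was obtained for 86 of 92 members (93.5%) and for 81.4% of all genes tested. The 6 members with wider intervals were COX6A2, COX7A1, COX6B2, COX4I2, NDUFA4L2 and NDUFAF6. Of these, the first 5 are tissue-restricted or inducible forms of complex IV subunits, and NDUFAF6 is an assembly factor. The median standard error was 0.09 log2 units over the members and 0.10 over all genes. Together the members made up 1.86% ± 0.17 (SD, n = 4) of the TPM outside the insulin genes for βPrlR+/− mice against 1.92% ± 0.16 (SD, n = 3) for Prlr+/− mice.

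**Figure D1:**
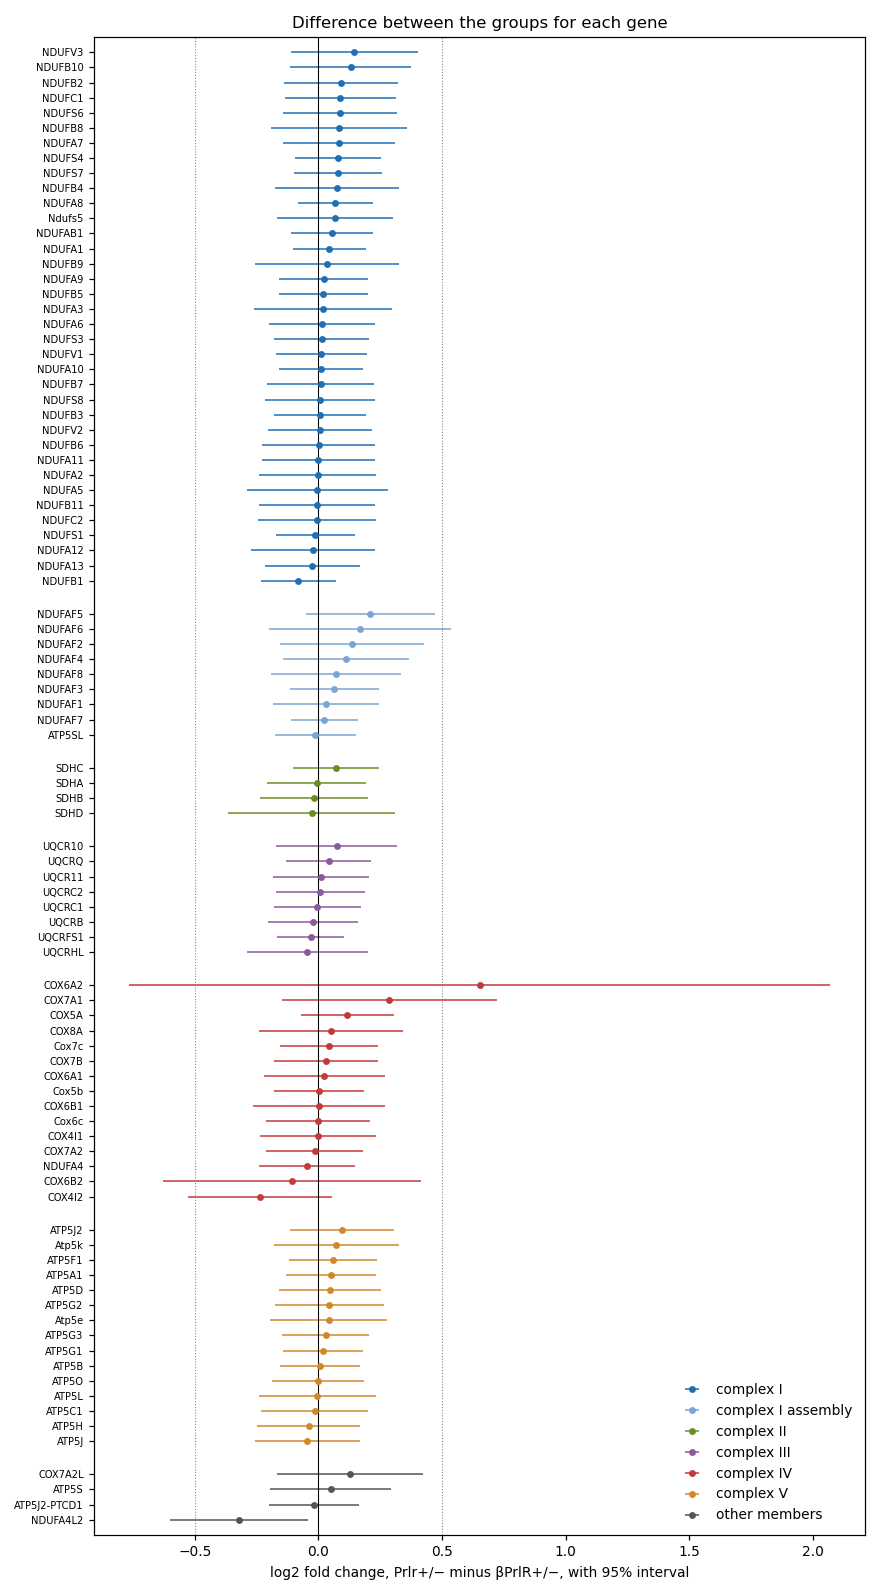
Log2 fold change (Prlr+/− minus βPrlR+/−) of 91 of the genes on the horizontal axis, each with its 95% interval from limma as a bar, grouped by complex and colored by group. Dotted lines mark 0.5 log2 units either side of 0, and 85 intervals lie between them, while the interval of NDUFA4L2 alone does not cover 0.

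The members were abundant mRNAs. Their median level was 78.5 scaled TPM against 7.46 for all genes tested. In all, 34 members were at or above 100 scaled TPM, 47 lay between 10 and 100, and 11 were below 10. The median level was highest in complex V (159) and complex IV (117), followed by complex III (92.3), complex II (88.0) and complex I (74.8), and lowest in the complex I assembly factors (8.85). The most abundant members were ATP5L (342), the g subunit of ATP synthase, COX7A2L (332) and COX8A (323), a small subunit of complex IV, which ranked 148, 152 and 158 among all gene names.

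**Figure D2:**
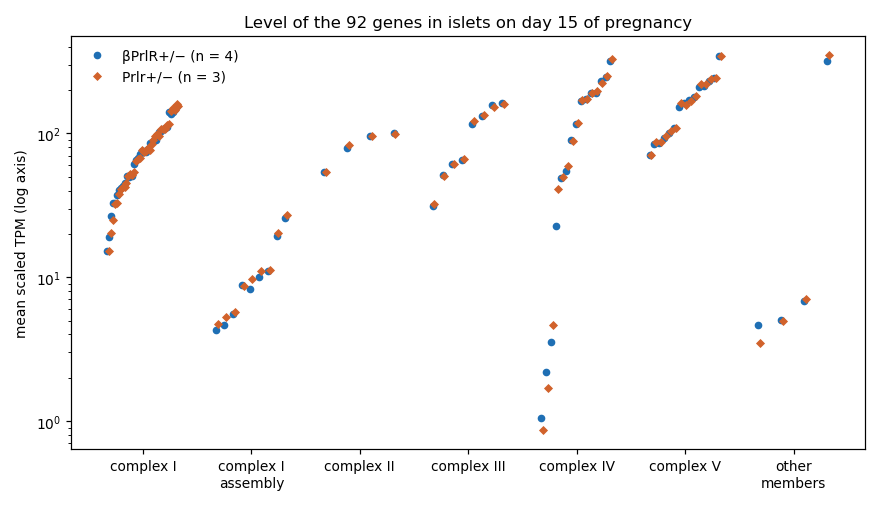
Mean scaled TPM of each of the 92 genes on a log axis, for 4 βPrlR+/− mice (circles) and 3 Prlr+/− mice (diamonds), by complex and in order of level within each. The symbols of a gene lie farthest apart for COX6A2 (22.7 and 41.2), NDUFA4L2 (4.62 and 3.48), COX7A1 (3.56 and 4.64) and COX4I2 (2.19 and 1.70), 7 of the 9 assembly factors lie below every subunit of complex I, and complex IV reaches down to COX6B2 at 0.977.

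Complex I is the largest complex of the chain, with core subunits that carry the flavin and the iron-sulfur clusters and many accessory subunits around them. For its 37 subunits the median log2 fold change was 0.02, with 28 higher and 9 lower, values from −0.08 to 0.15 and 37 of 37 intervals inside 0.5 log2 units. Summed over the subunits, the levels were 3004, 2896, 2567 and 2731 scaled TPM for the βPrlR+/− mice, and 3001, 2598 and 3065 for the Prlr+/− mice. The groups therefore overlapped over nearly their whole range, with βPrlR+/− mouse 3 and Prlr+/− mouse 2 lowest in each.

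The 7 core subunits in the nuclear genome had a median level of 50.6 scaled TPM, against 76.5 for the accessory ones, and the lowest was NDUFS1 (32.6), which carries iron-sulfur clusters of the NADH arm. NDUFS1 was measured at 31.7, 33.2, 33.1 and 32.6 scaled TPM in βPrlR+/− mice and at 34.1, 29.2 and 34.0 in Prlr+/− mice. Its values in the second group thus enclosed those of the first. NDUFV1, which binds NADH and the flavin, had 42.4, 40.8, 38.1 and 41.2 scaled TPM against 43.0, 36.5 and 43.8, and here too the Prlr+/− mice enclosed the others. NDUFV2, NDUFS3 and NDUFS7, further core subunits, had means of 51.1, 75.2 and 50.6 scaled TPM over the 7 mice. The log2 fold changes of the 7 genes had a median of 0.01, and 6 were higher and 1 lower.

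Among the 30 accessory subunits, NDUFB11 (154 scaled TPM) and NDUFB8 (153), both of the membrane arm, were the most abundant, and NDUFA11 (15.2) and NDUFS4 (19.5), an assembly and stability subunit of the NADH arm, the least. The highest log2 fold change of the complex, 0.15 (SE 0.11, unadjusted p = 0.22 by limma), was that of NDUFV3, an accessory subunit of the NADH arm. NDUFV3 measured 151, 151, 115 and 129 scaled TPM in βPrlR+/− mice and 147, 143 and 161 in Prlr+/− mice, so that only Prlr+/− mouse 3 lay above every βPrlR+/− mouse. NDUFV3 has a long transcript of 1582 bases and a short one of 493 in GENCODE, which encode different proteins. The long form held 6.85%, 10.3%, 9.23% and 9.72% of the TPM of the gene in βPrlR+/− mice and 7.02%, 5.79% and 9.71% in Prlr+/− mice. The short form was thus the main one in every mouse. The lowest log2 fold change, −0.08 (SE 0.06, unadjusted p = 0.25 by limma), was that of the row NDUFB1, named for a small membrane-arm subunit, which had 28.2, 26.3, 25.6 and 26.3 scaled TPM against 26.2, 23.2 and 26.0. This row held 1 transcript, a predicted RefSeq model of the non-coding class, and was the 1 member without a RefSeq gene match.

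The 9 assembly factors build complex I and are not part of the finished enzyme. Their median log2 fold change was 0.07, with 8 higher and 1 lower, and none passed the test. NDUFAF8 (26.4 scaled TPM) and NDUFAF3 (19.8) were the most abundant, and NDUFAF4 (4.49) and NDUFAF6 (4.95) the least. NDUFAF5, a hydroxylase that acts on the core subunit NDUFS7, had 9.39, 8.31, 6.80 and 8.46 scaled TPM in βPrlR+/− mice and 9.16, 10.9 and 8.99 in Prlr+/− mice. Only βPrlR+/− mouse 1 reached into the range of the other group, and the log2 fold change was 0.21 (SE 0.11, unadjusted p = 0.098, adjusted p = 0.9999 by limma). It was 0.05 when only the most abundant transcript of each gene was used. At the other end ATP5SL had 9.31, 9.10, 8.36 and 8.38 against 8.25, 9.42 and 8.47 scaled TPM, a log2 fold change of −0.01 (SE 0.07). Summed over the 9 genes, the levels ran from 89.0 to 111 scaled TPM and from 102 to 106, respectively.

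Complex II is encoded wholly in the nucleus. SDHA, the flavoprotein that oxidizes succinate, had 100, 104, 87.2 and 93.2 scaled TPM in βPrlR+/− mice and 100, 87.3 and 99.3 in Prlr+/− mice. SDHB, the iron-sulfur subunit, had 53.8, 57.3, 51.9 and 53.8 against 55.2, 46.1 and 60.1, and here the highest and the lowest mouse were both Prlr+/− mice. The membrane anchors SDHC and SDHD gave the extremes of the complex, at 0.07 (SE 0.07) and −0.03 (SE 0.14) log2 units. SDHD had 92.5, 113, 92.7 and 103 scaled TPM against 104, 77.5 and 116, the widest spread within the complex. The intervals of the 4 genes ran from −0.36 to 0.31 at most, and neither direction prevailed beyond 3 lower and 1 higher.

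In complex III 4 of 8 subunits were higher and 4 lower, with a median log2 fold change of 0.00 and values between −0.04 and 0.07. UQCRFS1, the Rieske iron-sulfur protein that carries electrons within the complex, varied little, with 53.1, 52.4, 50.1 and 51.1 scaled TPM in βPrlR+/− mice and 50.7, 47.7 and 53.4 in Prlr+/− mice. Its 95% interval, −0.17 to 0.11 log2 units, was among the narrowest of the members. The large core proteins UQCRC1 and UQCRC2 had means of 60.7 and 65.8 scaled TPM. UQCRB (162) and UQCRHL (156) were the most abundant and UQCRQ (31.7) the least. UQCR10, a small membrane subunit, was the highest of the complex at 0.07 (SE 0.10) and had 134, 118, 99.0 and 115 scaled TPM against 125, 114 and 127. UQCRHL was the lowest at −0.04 (SE 0.10), with 175, 168, 139 and 151 against 157, 137 and 165. For both genes the Prlr+/− values lay within or at the edge of the βPrlR+/− range.

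Complex IV differs from the others in having tissue-specific and inducible forms of several subunits. For its 15 nuclear genes the median log2 fold change was 0.00, with 9 higher and 6 lower. For the 11 forms found in most tissues, the 95% intervals reached from −0.27 to 0.34 log2 units at most. COX4I1, the usual regulatory subunit, had 264, 252, 236 and 238 scaled TPM in βPrlR+/− mice and 264, 212 and 269 in Prlr+/− mice. COX8A had 353, 346, 261 and 314 against 344, 294 and 348, and NDUFA4, once assigned to complex I, had 223, 241, 210 and 242 against 217, 208 and 240. In all 3 of these genes the ranges of the groups overlapped.

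The 1 member whose groups did not overlap was NDUFA4L2, a paralogue of NDUFA4 that is known to be induced by hypoxia. It had 5.69, 4.21, 4.74 and 3.86 scaled TPM in βPrlR+/− mice and 3.10, 3.59 and 3.75 in Prlr+/− mice. Every Prlr+/− mouse was below every βPrlR+/− mouse, although Prlr+/− mouse 3 and βPrlR+/− mouse 4 were nearly level. The log2 fold change was −0.32 (SE 0.12, 95% interval −0.60 to −0.04, unadjusted p = 0.030, adjusted p = 0.9999 by limma), and an exact permutation test over the 35 splits of the mice gave p = 0.0571, two-sided, where the smallest possible is 0.0286. The difference therefore did not pass the correction over all genes. Leaving out 1 mouse at a time, the value ran from −0.39 to −0.23 and the unadjusted p from 0.015 to 0.11. It was −0.62 when only the most abundant transcript of each gene was used. Of its transcripts, the predicted one had 4.48, 2.24, 2.82 and 2.97 scaled TPM against 2.05, 1.37 and 1.57, whereas the curated one had 1.21, 1.97, 1.91 and 0.892 against 1.05, 2.21 and 2.18. The groups were thus apart in the predicted transcript and overlapped in the curated one, and reads shared by both are divided by the authors' program. NDUFA4L2 made up 2.49%, 1.72%, 2.21% and 1.57% of the sum of NDUFA4 and NDUFA4L2 for βPrlR+/− mice against 1.41%, 1.69% and 1.54% for Prlr+/− mice. These shares overlapped between the groups, and the exact permutation test gave p = 0.171, two-sided.

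COX4I2, a form of COX4I1 that is also inducible by low oxygen and is known from lung and vascular cells, had the lowest value within complex IV. Its levels were 2.75, 2.21, 1.97 and 1.82 scaled TPM in βPrlR+/− mice and 1.69, 1.40 and 2.0 in Prlr+/− mice. Prlr+/− mouse 3 lay inside the range of the other group, and the log2 fold change was −0.24 (SE 0.12, unadjusted p = 0.096, adjusted p = 0.9999 by limma). As a share of COX4I1 and COX4I2 it was 1.03%, 0.871%, 0.827% and 0.757% against 0.637%, 0.657% and 0.738%, with no overlap, and the exact permutation test gave p = 0.0571 (0.514 adjusted over the 9 shares computed for isoform families).

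Markers of blood vessel cells stood at lower values in the same comparison, as did those of some other islet cells. All 5 α-cell markers were lower, with a median log2 fold change of −0.22, as were all 3 of δ- and PP-cells (−0.22) and all 4 tested ones of Schwann cells and neurons (−0.37), among which PRPH, a neuronal intermediate filament, alone passed an adjusted p of 0.05. Of 9 β-cell markers 8 were higher, at a median of 0.30, and all 4 tested macrophage markers were higher, at 0.08, and none of either passed. Acinar markers were higher in 10 of 12 tested, at a median of 0.09, and duct markers in 2 of 3 tested, at 0.00. None of these passed either. The Prlr+/− mice were lower in all 5 endothelial markers, whose median difference was −0.24 log2 units, none at an adjusted p under 0.05 and 3 at an unadjusted p under 0.05, and their summed level was 145 to 180 scaled TPM in βPrlR+/− mice and 122 to 154 in Prlr+/− mice. PECAM1, an adhesion molecule of endothelium, had 18.4, 17.9, 16.6 and 16.6 against 12.3, 11.8 and 16.3. In the list of fibroblast and pericyte markers set at the outset, 4 genes were tested, with 3 lower and 1 higher. Their median was −0.11, COL3A1 was the higher one (0.14), and none passed. A list of 8 pericyte markers, which shares PDGFRB with it, was chosen after the values had been seen. All 8 were lower, with a median of −0.18 and sums of 54.2 to 69.1 against 41.5 to 57.1. None of the 8 passed an adjusted p of 0.05. Of 10 hypoxia-induced genes, also listed after the fact, 8 were tested, 2 were lower and 6 higher, and the median was 0.03. Among these LDHA, the A form of lactate dehydrogenase, had 8.52, 6.62, 7.94 and 6.96 scaled TPM against 4.84, 6.51 and 5.81, with no overlap and an unadjusted p of 0.019 by limma, which did not pass the correction. ANKRD37, another gene induced by low oxygen, had 7.38, 7.86, 6.82 and 7.17 against 8.27, 7.76 and 9.14, with overlap and an unadjusted p of 0.049. Whether the makeup of the islets had a part in the values of NDUFA4L2 and COX4I2 was not tested, and in whole islets fewer cells of a type and less RNA per cell cannot be told apart.

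COX6A2, the form of COX6A1 known from heart and skeletal muscle, was the most variable member. It had 44.9, 15.4, 17.5 and 12.9 scaled TPM in βPrlR+/− mice and 18.4, 84.4 and 20.7 in Prlr+/− mice. βPrlR+/− mouse 1 and Prlr+/− mouse 2 stood apart from the other 5 mice, and the lower of the pair was at 2.17 times the highest of those. The log2 fold change of 0.65 had a standard error of 0.61 and an interval from −0.76 to 2.07 (unadjusted p = 0.31 by limma), and it rested on Prlr+/− mouse 2, since without that mouse it was −0.03. With both high mice left out, a choice made after seeing the values, it was 0.35. The share of COX6A2 in the sum of COX6A1 and COX6A2 ranged from 7.40% to 19.6% in βPrlR+/− mice and from 9.77% to 34.8% in Prlr+/− mice. Of 5 muscle markers 4 were under 0.5 TPM, and the remaining one, the skeletal actin ACTA1, had 0.972 to 1.38 scaled TPM in βPrlR+/− mice and 1.28 to 1.74 in Prlr+/− mice. ACTA1 was 1.15 in βPrlR+/− mouse 1 and 1.28 in Prlr+/− mouse 2, inside the range of the other mice. The β-cell transcription factor PDX1 was highest in the same pair, at 84.1 and 94.4 scaled TPM against 52.4 to 71.3 in the other 5 mice, as was NKX6-1, at 167 and 232 against 98.2 to 155. None of the other tested β-cell markers had both of these mice on top. INS, Ins1, MAFA and SLC30A8 were highest in Prlr+/− mouse 3 and UCN3 in Prlr+/− mouse 1. SLC2A2 and G6PC2 were highest in Prlr+/− mouse 2, but in both βPrlR+/− mouse 1 was below βPrlR+/− mouse 3. The mean of the β-cell markers on the log2 scale was 10.24 and 10.44 in the pair and 9.72 to 10.23 in the others. Their part in the COX6A2 values was not tested.

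COX7A1, the muscle form of COX7A2, had 4.00, 2.94, 3.10 and 4.19 scaled TPM in βPrlR+/− mice and 5.85, 3.14 and 4.94 in Prlr+/− mice. Prlr+/− mice 1 and 3 were above, and mouse 2 within, the βPrlR+/− range, and the log2 fold change was 0.29 (SE 0.19, unadjusted p = 0.16 by limma). Leaving out 1 mouse at a time, it ran from 0.13 without Prlr+/− mouse 1 (unadjusted p = 0.50) to 0.50 without Prlr+/− mouse 2 (unadjusted p = 0.012, adjusted p = 0.67 by limma). COX6B2, known as the testis form of COX6B1, was the member nearest the level limit, with 1.10, 0.341, 1.18 and 1.61 against 1.15, 0.709 and 0.752, a log2 fold change of −0.11 (SE 0.22). COX7B (49.1) and COX8A, whose paralogues Cox7b2, Cox8b and Cox8c were under the level, had intervals inside 0.5 log2 units. ATP5G1, ATP5G2 and ATP5G3 encode the same mature c subunit, and ATP5G2 gave 44.6% ± 1.11 (SD, n = 4) of their sum for βPrlR+/− mice against 44.9% ± 0.71 (SD, n = 3) for Prlr+/− mice.

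**Figure D3:**
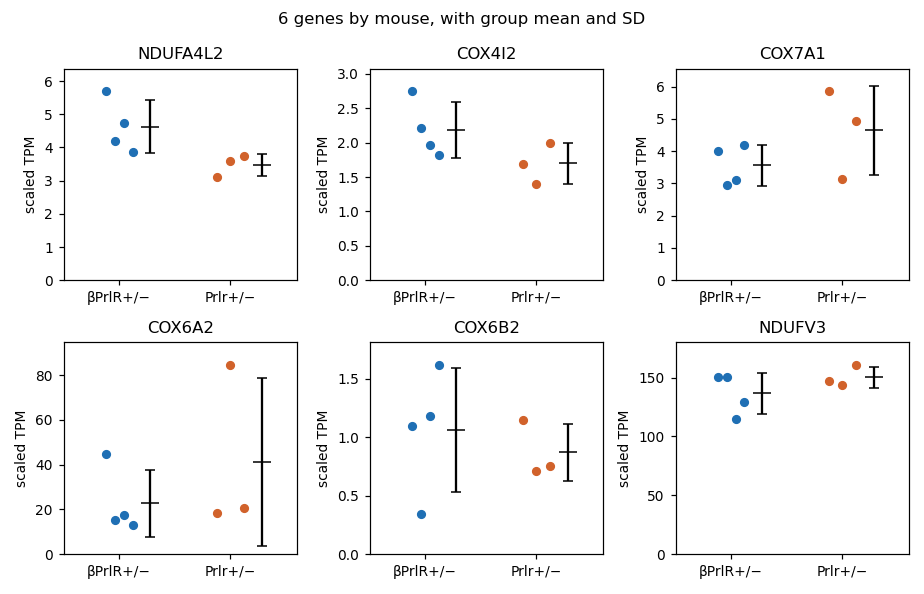
Scaled TPM of 5 isoform genes of complex IV and of NDUFV3 in each of 4 βPrlR+/− mice (blue) and 3 Prlr+/− mice (orange), with each group's mean and SD in black. NDUFA4L2 does not overlap between the groups, and COX6A2 is high in 1 mouse of each group, at 44.9 and 84.4.

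Complex V had a median log2 fold change of 0.03 over 15 genes, with 10 higher and 5 lower, values between −0.04 and 0.10, and 15 of 15 intervals inside 0.5 log2 units. ATP5B, the catalytic β subunit, had 247, 241, 233 and 240 scaled TPM in βPrlR+/− mice and 249, 224 and 253 in Prlr+/− mice. ATP5A1, the α subunit that alternates with it in the F1 head, had 219, 218, 201 and 203 against 230, 199 and 228. In both, Prlr+/− mouse 2 was the lowest of the 7 mice. By part of the enzyme, the median was 0.04 over 5 subunits of F1, 0.03 over the 3 c ring genes, −0.02 over 4 subunits of the peripheral stalk that holds the head still, and 0.07 over 3 small membrane subunits. The extremes were ATP5J2, the f subunit in the membrane, at 0.10 (SE 0.09), with 169, 155, 140 and 141 against 170, 149 and 167, and ATP5J, a stalk subunit, at −0.04 (SE 0.09), with 174, 168, 146 and 157 against 167, 141 and 162. ATP5L was the most abundant (342) and ATP5O (70.4) and ATP5F1 (85.4), both of the stalk, the least. Summed over the complex, the levels were 2595, 2509, 2273 and 2382 scaled TPM in βPrlR+/− mice and 2608, 2241 and 2592 in Prlr+/− mice.

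Over the 7 core subunits of complex I together with SDHA, SDHB, UQCRFS1, ATP5A1 and ATP5B, 12 genes in all, log2 fold changes lay between −0.03 and 0.08, and 12 of 12 intervals lay between −0.24 and 0.31. COX7A2L had 357, 336, 298 and 286 scaled TPM in βPrlR+/− mice and 365, 293 and 391 in Prlr+/− mice. The log2 fold change was 0.13 (SE 0.13). Leaving out 1 mouse at a time, it ran from 0.04 to 0.25, with an unadjusted p from 0.058 to 0.78 by limma. Prlr+/− mice 1 and 3 were the highest of the 7 and mouse 2 the second lowest. ATP5S (6.93) and ATP5J2-PTCD1 (4.97) had intervals within 0.29 log2 units of 0.

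Most members moved together from mouse to mouse within each group, although several complex I assembly factors did not. Relative to its mean over the 7 mice on the log2(scaled TPM + 1) scale, the median member deviated by 0.09, 0.03, −0.13 and −0.05 in βPrlR+/− mice 1 to 4 and by 0.07, −0.11 and 0.09 in Prlr+/− mice 1 to 3. The median of all genes tested deviated by less than 0.01 in every mouse, as the scaling makes it do. βPrlR+/− mouse 3 was the lowest of the 7 for 40 members and Prlr+/− mouse 2 for 37, together 83.7% of the members against 38.7% of all genes tested. Prlr+/− mouse 3 was the highest for 35 members, βPrlR+/− mouse 1 for 28 and Prlr+/− mouse 1 for 19. Of all genes tested, these mice were the highest for 15.3%, 11.2% and 12.7%, respectively. Prlr+/− mouse 2 was the highest for 6 members, namely COX6A2 and the assembly factors NDUFAF1, NDUFAF4, NDUFAF5, NDUFAF7 and ATP5SL. Among all genes tested, Prlr+/− mouse 2 was the highest for 23.2% and the lowest for 21.3%, in both cases the largest share of the 7 mice. Summed over the 9 assembly factors, its level was 105 scaled TPM, between the 106 and 102 of Prlr+/− mice 1 and 3.

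By median deviation, βPrlR+/− mouse 3 and Prlr+/− mouse 2 were the lowest in each of complexes I to V. In βPrlR+/− mouse 3 the median deviation was −0.13 in complex I, −0.11 in complex II, −0.11 in complex III, −0.14 in complex IV and −0.12 in complex V, and in Prlr+/− mouse 2 it was −0.11, −0.18, −0.11, −0.13 and −0.11, respectively. The low mice thus belonged to different groups. The mean of the acinar markers on the log2 scale was 9.50 and 9.19 in these mice, 9.46 in βPrlR+/− mouse 1 and 6.53 to 8.26 in the other 4. Whether acinar RNA had a part in the low values was not tested. With βPrlR+/− mouse 3 and Prlr+/− mouse 2 both left out, a choice made after seeing the data, the median log2 fold change over the members was 0.05 and none was called. With βPrlR+/− mouse 1 and Prlr+/− mouse 2 both left out, chosen in the same way for their COX6A2, the median was 0.12 and 14 members had an unadjusted p under 0.05 by limma, with none called. Of all 14840 genes tested in that setting, 1513 (10.2%) had such a p.

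**Figure D4:**
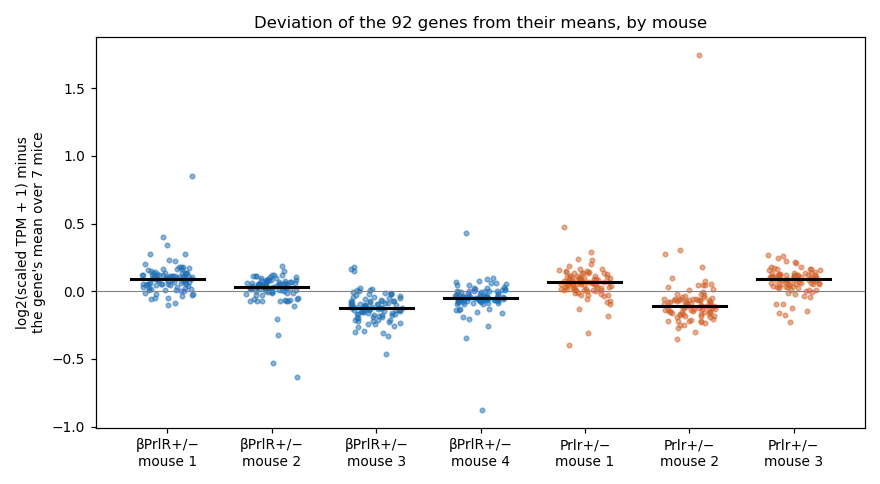
Deviation of each of the 92 genes from its mean over the 7 mice, as log2(scaled TPM + 1), for 4 βPrlR+/− mice (blue) and 3 Prlr+/− mice (orange), with a black line at the median. The medians of βPrlR+/− mouse 3 and Prlr+/− mouse 2, −0.13 and −0.11, are the lowest, and the high points of βPrlR+/− mouse 1 and Prlr+/− mouse 2 are COX6A2.

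The surrounding genes of the pathway were examined in 9 lists with 97 tested genes. None passed an adjusted p of 0.05, 1 had an unadjusted p under 0.05, 67 were higher and 30 lower, and the median log2 fold change was 0.03. The 1 gene was ATPAF1, a chaperone that brings the β subunit into the F1 head, with 10.1, 10.1, 9.71 and 9.57 scaled TPM among the βPrlR+/− mice and 11.1, 11.5 and 10.7 among the Prlr+/− mice. The groups did not overlap, and the log2 fold change was 0.16 (SE 0.05, unadjusted p = 0.020, adjusted p = 0.96 by limma). ATPAF1 was named after its values had been seen.

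Of the other assembly lists, all 4 complex II factors were higher at a median of 0.06, led in level by SDHAF4 (28.9 scaled TPM) and SDHAF1 (21.2). Complex I factors outside the NDUFAF names had 9 of 11 higher at a median of 0.06, with LYRM2 (20.5) and TMEM261 (17.0) the most abundant. For complex III, 5 of 7 were higher at 0.02, among them the assembly factor UQCC2 at 254, 203, 197 and 199 scaled TPM in βPrlR+/− mice and 277, 204 and 238 in Prlr+/− mice, and CYC1, the cytochrome c1 subunit, at a mean of 41.7. Complex IV factors had 16 of 24 higher at 0.04, and the copper chaperone COX17 (145) and COA3 (130) led them. All 6 further complex V genes were higher at 0.07, with the small subunits USMG5 (240) and C14orf2 (128) the most abundant.

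The carriers that serve the chain were also abundant. SLC25A3, which imports phosphate, had a mean of 202 scaled TPM and SLC25A4, which exchanges ATP for ADP, 172, and 6 of 8 genes of this list were higher at a median of 0.02. UCP2, an uncoupling family protein of the inner membrane that is known from β-cells, had 224, 328, 253 and 317 scaled TPM in βPrlR+/− mice and 272, 199 and 289 in Prlr+/− mice. Its range within the first group enclosed 2 of the 3 mice of the second, and the log2 fold change was −0.15 (SE 0.18). ETFB (66.4), which feeds electrons from fat oxidation, followed it in that list, where 4 of 7 were higher at 0.06. Of 13 coenzyme Q genes 9 were higher at 0.04, led by COQ2 (25.3) and COQ10A (23.1).

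Among the regulators of mitochondrial gene expression, 17 of 20 genes were tested, 8 were higher and 9 lower, and the median was −0.01. YY1 (31.8 scaled TPM) and MTERF3 (17.4) were the most abundant, and TFAM, which packs mitochondrial DNA and helps to start its transcription, had a mean of 14.3. The coactivators PPARGC1A and PPARGC1B, known as inducers of mitochondrial genes, were under the limit of 0.5 at means of 0.215 and 0.427 scaled TPM and were not tested.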

How the data were processed

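Islet RNA of 7 mice (4 βPrlR+/−, 3 Prlr+/−) was analysed. The authors' libraries were stranded and poly(A)-selected, and kallisto 0.42.4 assigned reads to mouse RefSeq transcripts; the genome build is not given in the sources used here. The deposited values are called FPKM in the methods, but each mouse sums to 1000000, so they were handled as TPM. A gene value is the sum of its transcripts, and 0 per-sample columns were left unused.

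TPM were divided by median-ratio size factors, and the 14840 genes with a mean of at least 0.5 TPM were tested as log2(scaled TPM + 1) with limma 3.58.1 (R 4.3.3, mean-dependent variance, Benjamini-Hochberg over all genes, threshold 0.05). Differences are Prlr+/− minus βPrlR+/− on that scale, which understates changes of low genes; intervals are 95% and not adjusted. Single values were also tested by two-sided exact permutation. On simulated data for this comparison, with 14673 genes, 88.6% of changes of 1 log2 unit and 47% of changes of 0.5 were recovered, and 5.57% of calls were false. Other steps used Python 3.11.15, pandas 2.3.3 and matplotlib 3.10.9. Names matched RefSeq (GRCm38.p6) for 91 of 92 members, all but NDUFB1.

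Genes named were those past the threshold, per complex the 2 highest and 2 lowest levels and the extreme fold changes, those with an unadjusted p under 0.05 and no overlap, catalytic subunits, isoform families and, per list, the 2 most abundant. The values of 1 gene that this rule names are not reported here. The members and lists were chosen with earlier results of these data known. The alternatives were TPM as deposited, upper-quartile scaling, TPM without the insulin genes, a pseudocount of 0.1, no filter, 0.5 TPM in every mouse, a robust fit, no variance trend, the highest transcript, an acinar covariate and leaving out each mouse. No batch is named.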

Additional observations from a re-analysis of the deposited data

Results flagged for a closer look

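The 92 members were screened for a mouse far from the others within the 4 βPrlR+/− mice (a group of 3 is too small for it) by the gap to the nearest mouse as a share of the range of the group, set against the critical value of Dixon's test. At the nominal rate of the test, chance flags about 1 in 20, or 4.6 of 92, and 3 were found. That rate holds for normally distributed values, and the members moved together from mouse to mouse. The share flagged over all genes tested is not given, so the 3 cannot be set against it. SDHC was low in βPrlR+/− mouse 3 (70.7 scaled TPM, the others 80.7 to 81.3, gap 0.943). ATP5G3 was low in the same mouse (170 against 179 to 180, gap 0.915). COX6A2 was high in βPrlR+/− mouse 1 (44.9 against 12.9 to 17.5, gap 0.857).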

How the results depend on the processing

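No member was called under any alternative. No paired analysis was possible because the mice carry no shared replicate numbers in the labels and were numbered in record order. With TPM as deposited, the median of all genes moved from 0.00 to −0.12, and the medians moved with it, to −0.12 over all members, −0.13 in complex I, −0.068 in its assembly factors, −0.16 in complex II, −0.14 in complex III, −0.14 in complex IV and −0.12 in complex V. The same setting turned SDHC (−0.073), UQCR10 (−0.071), COX7A2L (−0.019) and ATP5J2 (−0.048), so that relative to the shift of all genes they remained above it. Without the insulin genes ATP5SL was 0.0033, and with the highest transcript 0.054. With 1 mouse left out the direction turned in ATP5SL (−0.062 to 0.024), UQCRHL (−0.11 to 0.034), SDHD (−0.15 to 0.14), UQCR10 (−0.0021 to 0.14), COX6B2 (−0.30 to 0.022), COX6A2 (−0.032 to 1.04) and ATP5J (−0.093 to 0.030). With βPrlR+/− mouse 3 and Prlr+/− mouse 2 left out, added after seeing the data, COX6A2 was −0.095 and SDHD 0.10. With βPrlR+/− mouse 1 and Prlr+/− mouse 2 left out, also added then, the median was 0.117 over the members, 0.123 in complex I and 0.125 in complex IV, and NDUFB1 (0.0032), SDHD (0.106), UQCRHL (0.085) and ATP5J (0.069) turned. NDUFA4L2, COX4I2, COX7A1, NDUFAF5, NDUFV3 and ATPAF1 kept their direction in the 15 alternatives that could change a fold change, but with TPM as deposited NDUFV3 was 0.0010 and ATPAF1 0.025. The count of all genes called was 10, against 18 with a pseudocount of 0.1, 4 with no filter, 6 with the acinar covariate, and 2 to 13 with 1 mouse left out. The causes were not tested. The number of mice limits the precision, and TPM do not hold the depth behind each value.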

Other observations

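The pattern of COX6A2, with βPrlR+/− mouse 1 and Prlr+/− mouse 2 both above every other mouse by more than a factor of 2, was looked for after its values had been seen. It was shared by 6 of the 14840 genes tested, of which the others were Gm39397, Snord11, Snord111, Snord7 and mir-3068. COX6A2 was the sole member among them.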
